A study of Bos taurus with 9 samples.

Results

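The ends of the autosomes on the telomere side were examined in rumen epithelial tissue of Holstein calves, the lining of the first stomach chamber of a dairy breed, by chromatin immunoprecipitation followed by sequencing (ChIP-seq). Peaks on chromosomes 1 to 29 whose start lay within 3 Mb of the chromosome end were taken as members, and chromosome 18 was left out. As the end of a chromosome served the last base covered by a peak in any of the 8 lists. This gave 6140 peaks in the last 3 Mb of 28 chromosomes, of 130580 peaks in the whole series. The other 116707 peaks on the same 28 chromosomes served as the comparison. The 28 ends together measured 84 Mb, which was 3.44% of the extent of these chromosomes, and held 5.00% of their peaks.

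The groups were calves before weaning, when the diet is milk, and calves after weaning, when it is solid feed. At each time point 1 library was made for each of 4 targets, which were H3K9ac, H3K27ac, H3K9me3 and RNA polymerase II (RNA pol II). The labels give neither the age of the calves nor how many animals stand behind a library. With 1 library per group there was no replicate error and no test between time points was possible. All intervals below are exact 95% intervals for counting error alone. Peaks next to each other may stem from the same element, so that the intervals are too narrow to that extent.

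H3K9ac and H3K27ac are acetylations of histone H3 that mark active promoters and, for H3K27ac, also active enhancers. RNA pol II is the enzyme that transcribes genes, and H3K9me3 is a methylation of the same histone found in compact, silent chromatin. The autosomes of cattle are acrocentric, so that the sequence starts near the centromere and ends at the telomere. The telomeric side of a mammalian chromosome is in general gene-rich and rich in G and C, and H3K9me3 is best known from the repeats around centromeres and telomeres.

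H3K27ac peaks were denser in the last 3 Mb than in the rest of the same chromosomes at both time points, H3K9ac peaks were about as dense, and H3K9me3 peaks were sparser before weaning and about as dense after weaning. For each list, the number expected in the ends was computed chromosome by chromosome from the density in the rest of that chromosome. H3K27ac had 3901 peaks in the ends before weaning against 2487 expected, a ratio of 1.57 (95% interval 1.52 to 1.62). After weaning it had 1414 against 1024, a ratio of 1.38 (1.31 to 1.46). In density this was 46.4 peaks per Mb in the ends and 27.9 in the rest before weaning, and 16.8 and 11.6 after weaning.

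H3K9ac, the other acetylation, had 487 peaks in the ends before weaning against 494 expected, a ratio of 0.985 (0.900 to 1.08). After weaning there were 85 peaks against 71.6 expected, a ratio of 1.19 (0.948 to 1.47), so neither interval left out 1. RNA pol II had 59 peaks in the ends before weaning against 69.8 expected, a ratio of 0.846 (0.644 to 1.09). After weaning it had 13 against 26.8, a ratio of 0.485 (0.258 to 0.829), with the time points as the labels give them, but 0.912 in the last Mb. The text of the study places its shortest RNA pol II list before weaning and the labels place it after weaning, so the direction for this target rests on the labels.

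H3K9me3 had 42 peaks in the ends before weaning against 83.1 expected, a ratio of 0.505 (0.364 to 0.683). After weaning there were 139 against 140 expected, a ratio of 0.996 (0.837 to 1.18). Chromosome 17 was dense in peaks outside its end, with 7.07 and 8.16 H3K9me3 peaks per Mb before and after weaning and 3.40 RNA pol II peaks per Mb after weaning, and so raised the expected numbers. Without it the ratio was 0.614 (0.434 to 0.842) and 1.15 (0.960 to 1.36) for H3K9me3 before and after weaning. For RNA pol II after weaning it was 0.601 (0.288 to 1.11), with 10 peaks against 16.6 expected, so that the interval then included 1.

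**Figure D1:**
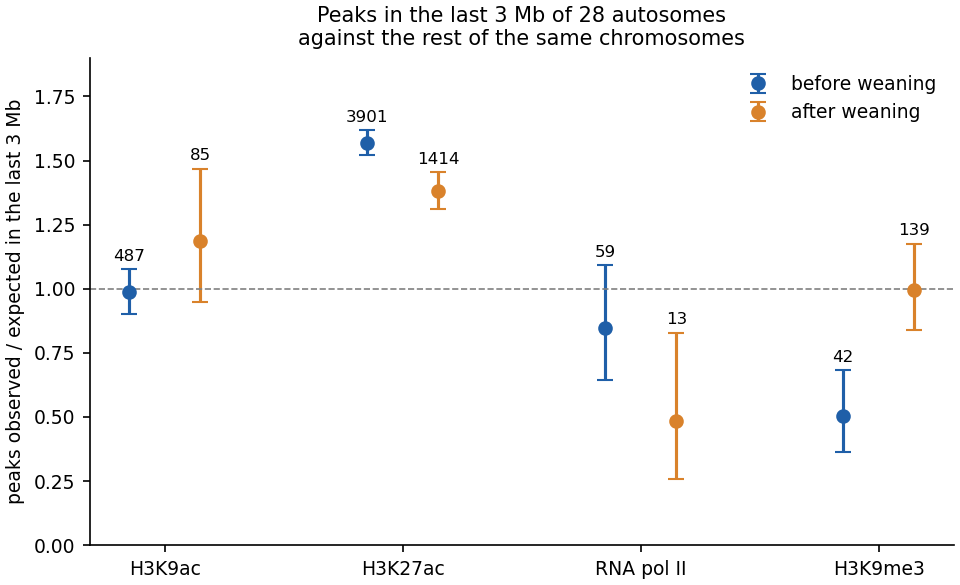
Number of peaks in the last 3 Mb of 28 autosomes divided by the number expected from the rest of the same chromosomes, for each target before weaning (blue) and after weaning (orange). Bars are exact 95% Poisson intervals of the observed number, which is printed above each bar. The 2 H3K27ac points lie above the dashed line at 1, the intervals of H3K9me3 before weaning and of RNA pol II after weaning lie below it (the latter only with chromosome 17 included), and the other 4 intervals cross it.

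The centromeric tips of the same chromosomes looked different. Set against the interior, which leaves out the first and the last 3 Mb, H3K27ac before weaning had a ratio of 1.55 (1.5 to 1.6) in the last 3 Mb and 0.722 (0.689 to 0.756) in the first 3 Mb, on the centromere side. H3K9me3 before weaning ran the other way, with 0.515 (0.371 to 0.696) in the last and 1.47 (1.22 to 1.76) in the first 3 Mb. After weaning the H3K9me3 ratios were 1.07 (0.899 to 1.26) and 2.86 (2.58 to 3.17). Per list, the first 3 Mb held 287 and 43 H3K9ac peaks before and after weaning, against 487 and 85 in the last 3 Mb.

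The high density of H3K27ac extended beyond the last 3 Mb. The density before weaning was 53.8 peaks per Mb in the last Mb, 48.2 in the next and 37.3 in the third, then 33.4 between 3 and 4 Mb from the end, and it rose again to 56.3 between 7 and 8 Mb. When the 10 Mb next to the window replaced the rest of the chromosome as the comparison, a reference chosen after the profile had been seen, the H3K27ac ratio was 1.08 (1.04 to 1.11) before and 0.986 (0.936 to 1.04) after weaning. H3K9ac before weaning was sparser in the ends than in these 10 Mb, with 5.80 against 7.56 peaks per Mb and a ratio of 0.766 (0.700 to 0.838). After weaning the H3K9ac ratio was 1.03 (0.826 to 1.28). For H3K9me3 the ratios were 0.824 (0.594 to 1.11) before and 1.14 (0.962 to 1.35) after weaning. RNA pol II had ratios of 0.863 (0.657 to 1.11) and 0.942 (0.502 to 1.61). Measured against their neighbourhood, H3K27ac before weaning and H3K9ac before weaning were thus the lists whose interval left out 1, one above and the other below.

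**Figure D2:**
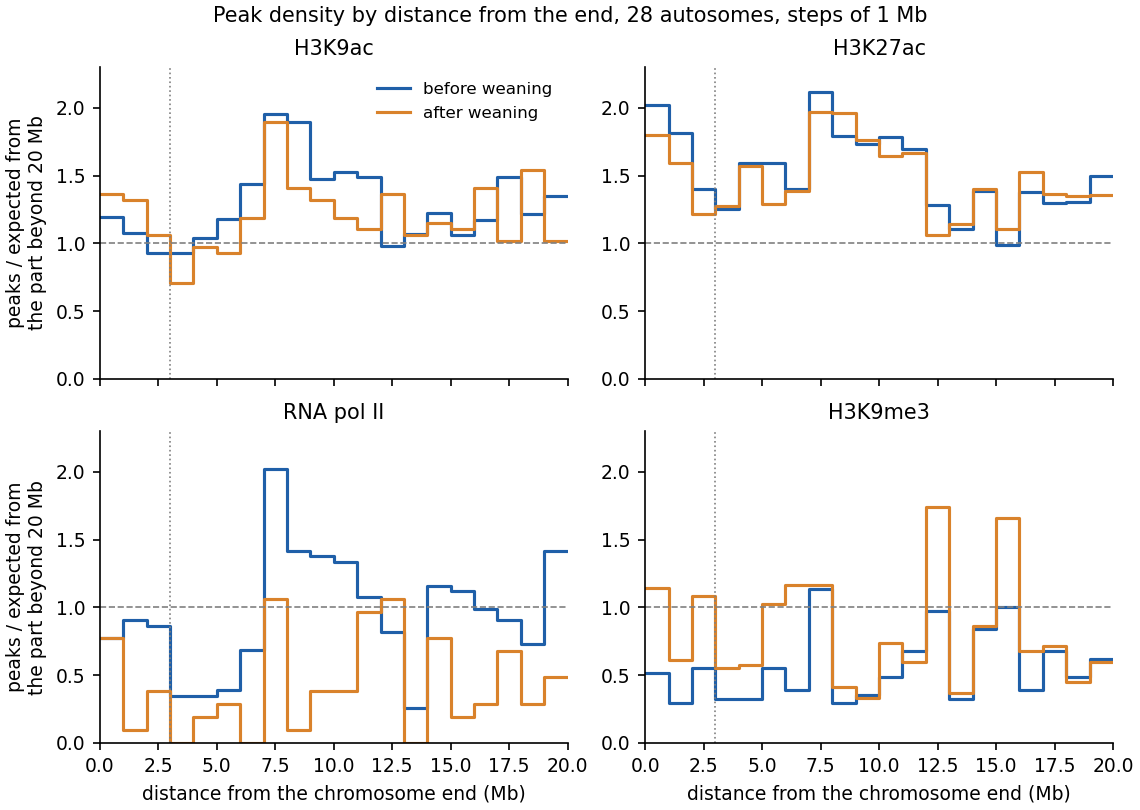
Peaks in steps of 1 Mb from the chromosome end, divided by the number expected from the part of the same chromosomes beyond 20 Mb, before weaning (blue) and after weaning (orange). The dotted line marks 3 Mb. H3K27ac stays above 1 in every step but the one between 15 and 16 Mb before weaning, at 2.02 in the last Mb and 2.12 between 7 and 8 Mb before weaning, whereas H3K9ac before weaning is at 1.2 in the last Mb and 1.96 between 7 and 8 Mb.

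Within the window, both acetylations had more peaks in the last Mb than in the Mb farthest from the end. The last Mb held 1505 and 552 H3K27ac peaks before and after weaning, compared with 1045 and 373 in the Mb farthest from the end. Just outside the 3 Mb limit, between 3 and 4 Mb, there were 934 and 390. For H3K9me3 after weaning the last Mb had 56 peaks, the Mb just inside the limit 53 and the Mb just outside it 27. RNA pol II before weaning had 20 peaks just inside and 8 just outside. H3K9ac before weaning had 141 on both sides of the limit and 182 in the last Mb.

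The final 10 kb of each chromosome, a distance chosen after seeing the data, were crowded in part by construction, since the last peak sets the end. The last peak was an H3K27ac peak before weaning on 15 chromosomes, an H3K9me3 peak after weaning on 9, an H3K27ac peak after weaning on 3 and an RNA pol II peak before weaning on 2, with 1 chromosome counted for both H3K27ac lists. These 10 kb make up 0.333% of the window. They held 19 of the 139 H3K9me3 peaks after weaning, which is 13.7%, on 10 chromosomes, and 5 of the 42 before weaning, 11.9%, on 4 chromosomes. RNA pol II after weaning had 4 of its 13 peaks there, on 3 chromosomes. H3K27ac before weaning had 50 peaks in these 10 kb, on 18 chromosomes, which is 1.28% of its peaks in the ends.

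The ends differed widely among themselves. The ends with most H3K27ac peaks before weaning were those of chromosome 11 with 286 peaks, chromosome 17 with 267 and chromosome 21 with 255. The lowest number was 31, on chromosome 1, and the median was 124. Relative to the rest of the chromosome the order was chromosome 12, with 75.3 against 15.8 peaks per Mb and a ratio of 4.78, then chromosome 17 with 3.48 and chromosome 21 with 3.35. At the bottom was chromosome 1 with 0.478. The end was denser than the rest on 18 of 28 chromosomes before weaning.

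After weaning, chromosome 21 had both the most H3K27ac peaks, 119, and the highest ratio, 3.72. Chromosome 11 followed in number with 108 peaks and chromosome 29 with 83. Chromosome 17 followed in ratio with 2.35 and chromosome 6 with 2.34. The lowest end was again that of chromosome 1, with 3 peaks and a ratio of 0.117, and the median end had 44. The end was denser than the rest on 21 of 28 chromosomes. Chromosome 19, the chromosome with the densest H3K27ac outside its end, had a sparser end at both time points, with ratios of 0.898 before and 0.464 after weaning. Leaving out 1 chromosome at a time kept the pooled ratio between 1.51 and 1.63 before weaning and between 1.31 and 1.47 after weaning.

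**Figure D3:**
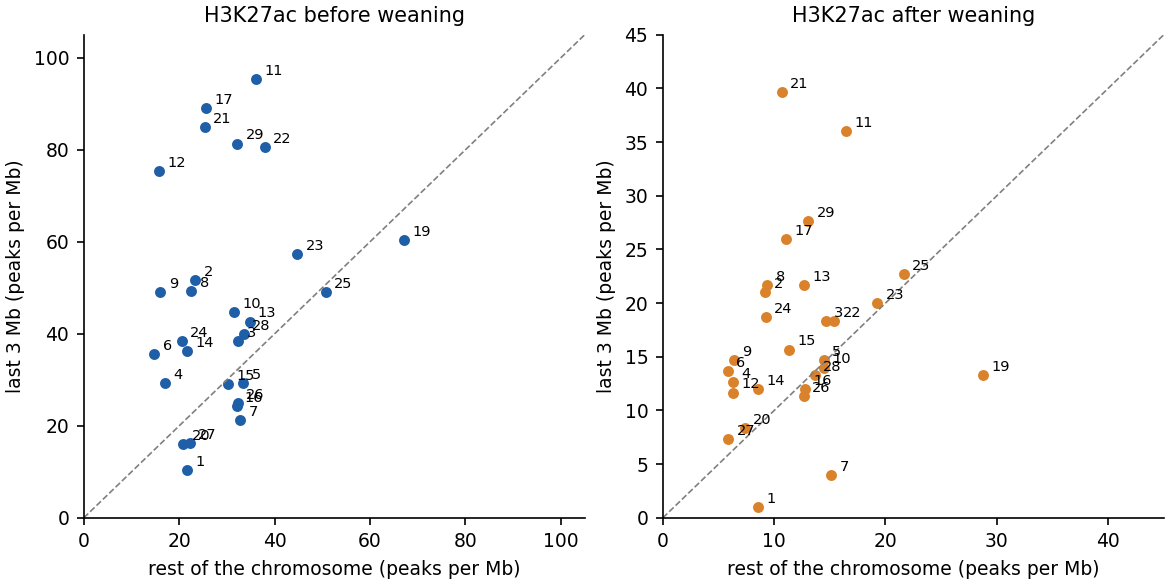
H3K27ac peaks per Mb in the last 3 Mb (vertical axis) against the rest of the same chromosome (horizontal axis), 1 point per chromosome with its number, before weaning (left) and after weaning (right). The dashed line marks equal density. Chromosomes 11, 17, 21 and 29 lie far above it in both panels, chromosome 12 does so before weaning, and chromosomes 1, 7 and 19 lie below it in both.

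For H3K9ac before weaning the ends ranged from 2 to 44 peaks with a median of 15. The most were on chromosome 11 with 44, chromosome 21 with 42 and chromosome 2 with 33. The ratio to the rest was highest on chromosome 12 with 3.54, chromosome 21 with 2.99 and chromosome 2 with 2.59, and it was above 1 on 12 of 28 chromosomes. After weaning no end had more than 7 peaks. That number was reached on chromosome 17, and chromosomes 21 and 23 had 6 each. Among ends with at least 5 peaks the ratios were highest on chromosome 6 with 4.13, chromosome 21 with 3.43 and chromosome 13 with 1.85.

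RNA pol II peaks were few in every end. Before weaning the most were on chromosome 29 with 7, and on chromosomes 11 and 21 with 5 each, and 5 ends had none. Their ratios were 2.45, 2.15 and 3.01. After weaning 20 of the 28 ends had no RNA pol II peak, and the 13 peaks lay on the 8 others, with 3 each on chromosomes 17 and 21 and 2 on chromosome 23. A count of 0 in a single end has an upper limit of 3.69 peaks, so most single ends could not be told apart for this target.

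For H3K9me3 before weaning the most peaks in an end were 4, on chromosomes 3, 6, 15 and 17, and 7 ends had none. After weaning every end had at least 1. Chromosome 3 stood apart with 24 peaks, a density of 8 per Mb against 1.07 in the rest and a ratio of 7.46. Chromosomes 4 and 23 followed with 10 peaks each, at ratios of 3.14 and 2.12. Chromosome 15, with 7 peaks, had a ratio of 3.20. Without chromosome 3 the pooled H3K9me3 ratio after weaning was 0.843.

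Of the 24 peaks on chromosome 3, 13 formed a run with gaps under 20 kb at chr3:118724846-118794207, a stretch of 69.4 kb about 2.6 Mb from the end. The widest of them was 617 bp, at chr3:118774139-118774755. The same stretch held 2 H3K9me3 peaks before weaning, 1 RNA pol II peak at each time point, and no peak of either acetylation. It was described after its values had been seen. The longest H3K9me3 run in an end before weaning held 2 peaks. The longest H3K27ac run in an end, before weaning, held 44 peaks over 104.6 kb at chr11:105950635-106055234, where 17 H3K27ac peaks and no H3K9me3 peak were found after weaning.

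**Figure D4:**
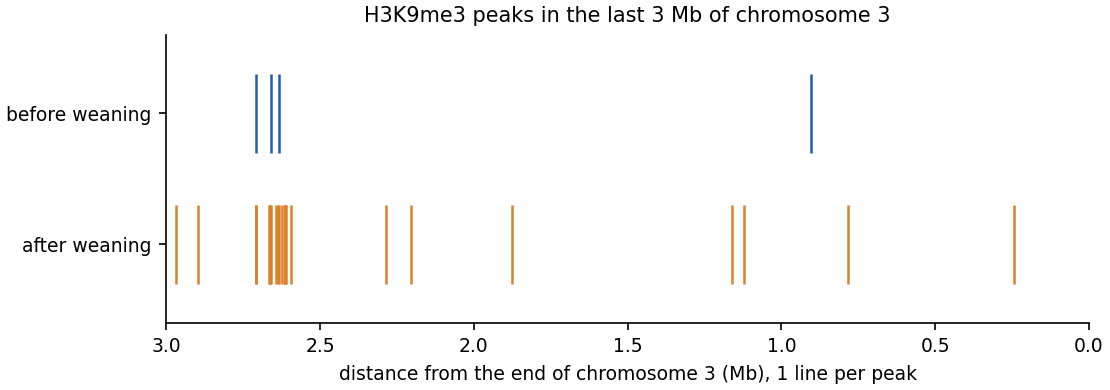
H3K9me3 peaks in the last 3 Mb of chromosome 3 by their distance from the end in Mb, 1 line per peak, before weaning (upper row, 4 peaks) and after weaning (lower row, 24 peaks). After weaning 13 of the peaks sit close together at about 2.6 Mb from the end.

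The number of peaks in the ends changed across weaning in the direction of the rest of the chromosomes for each target. The interval of the ratio in the ends left out the ratio in the rest for H3K27ac and H3K9me3, and included it for H3K9ac and RNA pol II. H3K9ac went from 487 to 85 peaks, a ratio of 0.175 (0.137 to 0.220), against 0.148 (0.141 to 0.155) in the rest. H3K27ac went from 3901 to 1414, a ratio of 0.362 (0.341 to 0.385), against 0.414 (0.409 to 0.420) in the rest, and these intervals did not overlap. RNA pol II went from 59 to 13, a ratio of 0.220 (0.111 to 0.406), against 0.368 (0.337 to 0.402), as labelled. With the doubtful time points of these lists exchanged it would be 4.54 (2.46 to 9.02) against 2.72 (2.49 to 2.97). In the last Mb alone the ratio as labelled was 0.444, then above the 0.363 of the rest. H3K9me3 went from 42 to 139, a ratio of 3.31 (2.33 to 4.79), against 1.70 (1.61 to 1.79) in the rest, and these intervals did not overlap either. Against the 10 Mb next to the window, the reference chosen after seeing the data, the ratios were 0.396 (0.382 to 0.409) for H3K27ac and 2.38 (1.99 to 2.87) for H3K9me3. The interval of the ends then left out that ratio for H3K27ac but not for H3K9me3, and for both marks the intervals of ends and reference overlapped. For RNA pol II the ratio there was 0.202 (0.144 to 0.278), below that of the ends but within their interval. For H3K9ac it was 0.129 (0.114 to 0.147), which the interval of the ends left out. For H3K9me3 the lanes differed, lane 2 before and lane 1 after weaning, and the effect of lane cannot be told apart from that of weaning. The libraries of each other target shared a lane.

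These changes were spread over many chromosomes, as were those in the rest. H3K27ac was lower after weaning in all 28 ends and H3K9ac in 26, while H3K9me3 was higher in 22. In the rest, H3K27ac and H3K9ac were lower and H3K9me3 was higher after weaning on every chromosome. The direction in most ends was thus that of the whole lists. On the 28 chromosomes H3K27ac went from 69828 to 28738 peaks, H3K9ac from 13587 to 2025 and H3K9me3 from 2210 to 3814. RNA pol II was lower in 23 ends as labelled, and would be higher in those with the time points exchanged. By number of peaks, the largest fall of H3K27ac was on chromosome 12, from 226 to 35 peaks, compared with 1390 and 557 in the rest of that chromosome. The smallest was on chromosome 20, from 48 to 25. H3K9ac fell most on chromosome 11, from 44 to 5, and was higher after weaning in 1 end, that of chromosome 20, with 2 peaks before and 4 after. The RNA pol II lists differed most on chromosome 29, with 7 peaks in the list labelled before weaning and 0 in the other, and had equal numbers in 5 ends, chromosome 5 with 0 and 0 among them. H3K9me3 rose most on chromosome 3, from 4 to 24, and was lower in 1 end, that of chromosome 6, with 4 before and 1 after.

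Positions were then compared across weaning. A peak counted as kept when it shared at least 1 bp with a peak of the same target at the other time point. Of the 3901 H3K27ac peaks in the ends before weaning, 971 were kept, which is 24.9% (23.5 to 26.3), against 27.9% of all H3K27ac peaks before weaning on the 28 chromosomes and 28% (27.7 to 28.4) in the rest. Of the 1414 after weaning, 1053 had been present before, 74.5% (72.1 to 76.7), against 76.5% of all and 76.6% (76.1 to 77.1) in the rest. Single ends ranged from 9.68% of the peaks before weaning on chromosome 1 to 36.7% on chromosome 13, with a median of 25.2%, and 17 of 28 were below the rest of their own chromosome. On chromosome 12, where the number fell most, 13.7% (9.51 to 18.9) were kept. With a reciprocal overlap of 50%, the share in the ends after weaning was 37.6%, then above the 35.9% of the rest. Before weaning it was 13.6% against 14.9%.

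H3K9ac kept 34 of 487 peaks in the ends, 6.98% (4.88 to 9.62), against 6.52% of all such peaks. In the other direction 34 of 85 peaks, 40.0% (29.5 to 51.2), had been present before weaning, against 43.5% of all. RNA pol II kept 6 of 59 peaks before weaning, 10.2% (3.82 to 20.8), against 19.4% of all, and 6 of the 13 peaks after weaning had been present before, 46.2% (19.2 to 74.9), against 52.3% of all. The shares of these targets were near those over all their peaks or had wide intervals.

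For H3K9me3 the intervals of ends and rest overlapped before weaning and did not overlap after weaning. Before weaning 16 of 42 were kept, 38.1% (23.6 to 54.4), against 55.6% of all and 56.0% (53.8 to 58.1) in the rest. In windows of 1 and 2 Mb the share was 50% (24.7 to 75.3) of 16 peaks and 48% (27.8 to 68.7) of 25. In a window of 5 Mb it was 33.9% (22.3 to 47.0) of 62 peaks against 56.2% (54.1 to 58.4) in the rest, and these intervals did not overlap. After weaning 17 of 139 had been present before, 12.2% (7.29 to 18.9), against 31.3% of all and 32% (30.5 to 33.5) in the rest. The latter share moves with the numbers of peaks, since the ends had 30.2 H3K9me3 peaks before weaning for every 100 after weaning and the rest had 59.0. How far it goes beyond the difference in numbers was not tested. Chromosome 17 held 510 of the 2168 H3K9me3 peaks of the rest before weaning and 589 of the 3675 after weaning. Its part in the shares of the rest was not tested either.

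**Figure D5:**
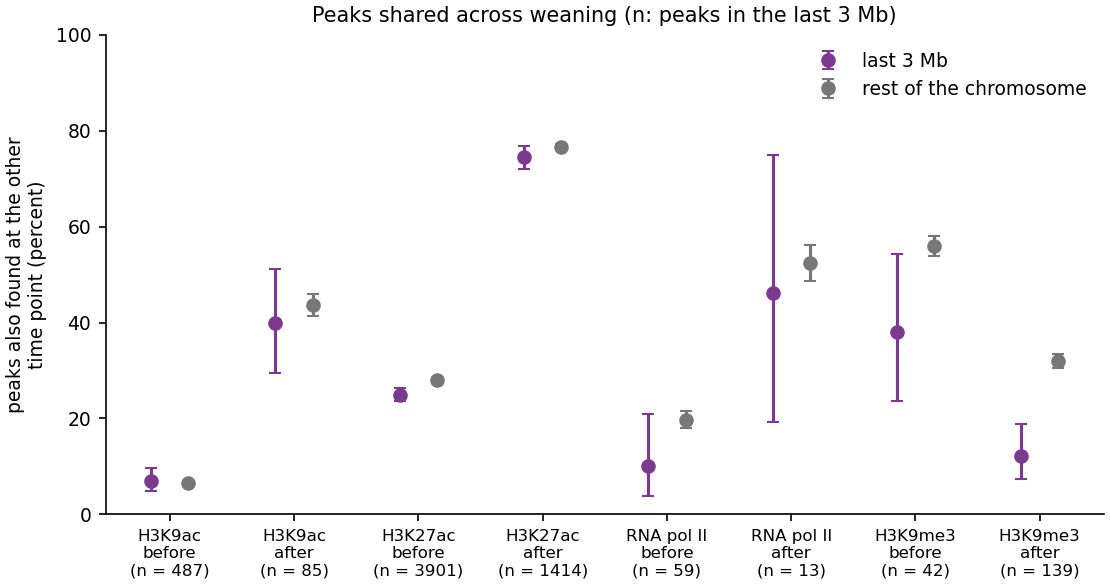
Share of peaks that touch a peak of the same target at the other time point, in the last 3 Mb (purple) and in the rest of the same chromosomes (grey), for each list, with exact 95% binomial intervals. The H3K9me3 list after weaning shows 12.2% in the ends and 32% in the rest, a share that moves with the numbers of peaks before and after weaning.

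Marks were also compared with each other at each time point. H3K27ac before weaning met H3K9ac in a smaller share of its peaks in the ends than in the rest. Of the H3K27ac peaks there 403 touched an H3K9ac peak, 10.3% (9.39 to 11.3), against 15.4% of all and 15.7% (15.4 to 16.0) in the rest, and the share was below that of the rest of the same chromosome on 25 of 28. Conversely, 443 of the 487 H3K9ac peaks touched an H3K27ac peak, 91.0% (88.1 to 93.4), against 89.9% of all. The first share moves with the higher density of H3K27ac in the ends, where that of H3K9ac was near the rest, and its part in the difference was not tested. After weaning 60 H3K27ac peaks touched H3K9ac, 4.24% (3.25 to 5.43), against 4.85% of all. Of the 85 H3K9ac peaks after weaning 61 touched H3K27ac, 71.8% (61.0 to 81.0), against 68.8% of all.

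With overlaps of at least 1 bp, RNA pol II before weaning met acetylation in the ends in shares near those over all its peaks. Of its 59 peaks in the ends 48 touched H3K27ac, 81.4% (69.1 to 90.3), against 75.9% of all, and 30 touched H3K9ac, 50.8% (37.5 to 64.1), against 49% of all. With a reciprocal overlap of 50%, 27.1% (16.4 to 40.3) met H3K27ac, against 9.62% in the rest. For H3K9ac it was then 32.2% (20.6 to 45.6) against 27.2%. Only 4 of the 59 touched H3K9me3, 6.78% (1.88 to 16.5), against 22.1% of all and 22.5% (20.7 to 24.5) in the rest. Chromosome 17 held 202 of the 1881 RNA pol II peaks and 510 of the 2168 H3K9me3 peaks of the rest before weaning. Overlaps were not recomputed without it, so its part in this difference was not tested. Seen from the acetylations, with the labelled time points, 50 of 3901 H3K27ac peaks touched RNA pol II, 1.28% (0.953 to 1.69), against 2.07% of all, and 30 of 487 H3K9ac peaks did, 6.16% (4.19 to 8.68), against 7.11% of all. With the RNA pol II lists exchanged, 1 H3K27ac peak and 2 H3K9ac peaks did, 0.0256% and 0.411%, against 0.0759% and 0.883% of all. As labelled, but with a reciprocal overlap of 50%, the H3K27ac share was 0.410%, then above the 0.275% of the rest. The H3K9ac share was 3.9% in both. H3K9me3 and acetylation seldom met before weaning. Of the H3K9ac peaks in the ends 2 touched H3K9me3, 0.411% against 0.891% of all, and of the H3K27ac peaks 4 did, 0.103% against 0.0745% of all. Of the 42 H3K9me3 peaks 2 touched H3K9ac, 4.76% against 5.2% of all, 4 touched H3K27ac, 9.52% (2.66 to 22.6) against 2.35% of all, and 4 touched RNA pol II, 9.52% against 18% of all, or with the lists exchanged 5, 11.9% (3.98 to 25.6) against 25.8% of all.

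After weaning, 10 of the 13 RNA pol II peaks touched H3K9me3, 76.9% (46.2 to 95), against 87.1% of all. The end lay above the rest in windows of 1 and 2 Mb, with 100% against 86.9% in both. It did so too with a reciprocal overlap of 50%, with 69.2% (38.6 to 90.9) against 52.2%. With acetylation, 5 touched H3K9ac, 38.5% against 37.7% of all, and 4 touched H3K27ac, 30.8% against 31.6% of all. Each of the shares in the 3 Mb window rests on 13 peaks. In the rest, 245 of the 692 RNA pol II peaks and 589 of the 3675 H3K9me3 peaks after weaning lay on chromosome 17. Its part in the shares over all peaks was not tested. If the time points of the RNA pol II lists are exchanged, 5 of the 13 touched H3K9me3, 38.5% (13.9 to 68.4) against 89.1% of all, 2 touched H3K9ac and 1 touched H3K27ac, 15.4% against 16.6% and 7.69% against 7.52% of all. Of the 59 peaks of the longer list, 34 then touched H3K27ac, 57.6% (44.1 to 70.4), 9 touched H3K9ac, 15.3%, and 5 touched H3K9me3, 8.47% (2.81 to 18.7), against 66.3%, 17.7% and 20.8% of all. With the lists as labelled, 6 of the 85 peaks for H3K9ac touched RNA pol II, 7.06% against 13.4% of all, and 4 of the 1414 for H3K27ac, 0.283% (0.0771 to 0.723) against 0.8% of all. Exchanged, 10 of the 85 and 35 of the 1414 did, 11.8% (5.79 to 20.6) and 2.48% (1.73 to 3.43), against 16.5% and 4.54% of all. Between H3K9me3 and the acetylations after weaning, 6 of the 85 H3K9ac peaks touched H3K9me3, 7.06% (2.63 to 14.7), against 14.1% of all, and 5 of the 1414 H3K27ac peaks did, 0.354% (0.115 to 0.823), against 0.825% of all. Of the 139 H3K9me3 peaks 5 touched H3K9ac, 3.6% against 7% of all, 5 touched H3K27ac, 3.6% against 5.79% of all, and 10 touched RNA pol II, 7.19% (3.5 to 12.8) against 14.7% of all, or with the lists exchanged 6, 4.32% (1.6 to 9.16) against 9.88% of all. The intervals for H3K9ac and H3K27ac, both 1.18 to 8.19, include the shares over all peaks, and in the last Mb 7.14% met H3K9ac and 14.3% RNA pol II.

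Merging overlapping peaks of all lists gave 4441 regions in the ends and 77369 in the rest. In the ends 74.2% of the regions had a peak in a single library, against 70.2% in the rest. Regions with an H3K27ac peak before weaning alone numbered 2758, 62.1% of the regions in the ends against 56.2% in the rest. Peaks of both H3K27ac libraries and no other made up 660 regions, 14.9% against 13.8%. Regions with peaks of both H3K27ac libraries and of H3K9ac before weaning, and of no other library, numbered 203, 4.57% against 6.73%. Regions with H3K9me3 after weaning alone numbered 114, 2.57% against 3.13% in the rest.

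In 3 regions of the ends peaks of all 4 targets met, 0.0676% of the regions there, against 0.204% over the 28 chromosomes. The same 3 had peaks of at least 6 libraries, a property of 0.21% of all regions, and none had all 8. A pair of them lay in the final 10 kb of chromosome 17, at chr17:75156090-75156942 and chr17:75154719-75155301, and both lacked H3K27ac before weaning. The third was at chr19:62018987-62019935, 1.99 Mb from the end, and lacked both acetylations before weaning. Each held 1 of the 13 RNA pol II peaks found in the ends after weaning. Since all lists were called against 1 input library, an over-represented stretch of DNA can enter several of them, and its part in these regions was not tested. The shares over all regions include chromosome 17, dense in H3K9me3 and RNA pol II peaks outside its end. The part of that chromosome in them was not tested.

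Acetylation peaks in the ends were about as wide as elsewhere. The median width of H3K27ac was 335 bp (329 to 343) in the ends and 343 bp (341 to 345) in the rest before weaning, and 284 bp (277 to 292) and 291 bp (289 to 292) after weaning. For H3K9ac the medians were 259 bp (253 to 271) and 267 bp (265 to 268) before weaning. H3K9me3 peaks were narrower in the ends, 231.5 bp (217 to 265) against 280.5 bp (274 to 288) before weaning and 223 bp (211 to 240) against 249 bp (246 to 254) after weaning. By covered length the ratio of observed to expected was accordingly lower for H3K9me3, 0.381 before and 0.787 after weaning. The value after weaning was 0.997 without chromosome 17, 1.02 in the last Mb and 1.06 against the next 10 Mb, and 0.636 in a window of 5 Mb. The value before weaning was 0.470 without chromosome 17 and 0.714 against the next 10 Mb. For H3K27ac it was 1.46 and 1.33, with 2.05% of the ends and 1.32% of the rest under a peak before weaning.

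The widest peaks of the ends lay at a few places. H3K27ac before weaning had its widest peak at chr13:81874293-81877696, 3404 bp, and the widest H3K9ac peak before weaning, 1474 bp, lay inside it at chr13:81875818-81877291. In the rest of the chromosomes 33 H3K27ac peaks and 2 H3K9ac peaks before weaning were wider. That place also had RNA pol II before weaning and both acetylations after weaning. H3K27ac after weaning was widest at chr2:136526871-136528343, 1473 bp, and H3K9ac after weaning at chr17:75154791-75155301, 511 bp, in a region of 4 targets described above. Before weaning RNA pol II was widest at chr17:73002372-73003062, 691 bp, where both H3K9me3 lists had a peak and neither acetylation did. The region on chromosome 19 gave the widest RNA pol II peak after weaning, 715 bp, and the widest H3K9me3 peaks at both time points, 844 and 949 bp.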

How the data were processed

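ChIP-seq of 4 targets at 2 time points gave 8 libraries of 75-nt reads, and 1 input library. As the study's methods state, the authors removed reads failing the Illumina filter, aligned the others with BWA to UMD3.1.1 (UMD3.1 in the submitters' processing notes), kept unique alignments with fewer than 2 mismatches and called peaks with MACS2 at default settings against the input. The notes also name Trim Galore 0.4.1. The deposited values are chromosome, start and end of each peak, with no height, fold or p-value to rank them. Read depths were not used here. Unique alignment removes reads from repeats and recent duplications, which can lower peak numbers near telomeres. Starts were read as 1-based, which makes the lowest width 200 bp.

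Groups came from the labels. Expected numbers, exact Poisson and Clopper-Pearson intervals, overlaps of at least 1 bp and medians with order-statistic intervals were computed in Python 3.11.15 with pandas 2.3.3 and scipy 1.17.1, and checked on simulated data. The ratio of 2 counts has the interval of the binomial share. No p-values were computed, since each group holds 1 library and neither peaks nor chromosomes are replicates. Named were the 3 ends with most peaks and the 3 with the highest ratio per list (with at least 5 peaks), the widest peak per list, regions of 4 targets or at least 6 libraries, and the ends with the largest changes. The window, lists and rules were chosen with earlier results of these data known. Alternatives were windows of 1, 2 and 5 Mb, merging within 1 kb, peaks wider than the median, other references, chromosomes left out, equal numbers of the widest peaks, a reciprocal overlap of 50% and peaks extended by 1 kb. The highest peak end may lie short of the end of the assembled sequence. Genes, sequence and base composition, and chromosome 18, were not analysed here.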

Additional observations from a re-analysis of the deposited data

Results flagged for a closer look

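The H3K9ac ratio in the ends lay on opposite sides of 1 at the 2 time points, 0.985 (0.900 to 1.08) before and 1.19 (0.948 to 1.47) after weaning. The difference was not tested, and both intervals include 1.

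The X chromosome was outside the comparisons. Its last 3 Mb, counted in the same way from the highest peak end, held 4 H3K9ac peaks before weaning, 21 H3K27ac peaks before weaning and 8 H3K27ac peaks after weaning. The densities were 1.33, 7 and 2.67 peaks per Mb, against 0.453, 7.39 and 1.52 in the rest of the X chromosome. For H3K27ac the ratio of end to rest was 0.948 (0.587 to 1.45) before and 1.76 (0.760 to 3.47) after weaning, and for H3K9ac before weaning 2.95 (0.803 to 7.54).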

How the results depend on the processing

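Of 524 recomputed values, 273 ratios and shares and 137 counts, widths and covered lengths stayed within the counting interval of the reported value, or for counts within 1.5 times of it. Another 73 ratios and shares and 38 counts, widths and covered lengths moved beyond it. The remaining 2 ratios and 1 covered length turned to the other side of 1. The pooled H3K27ac ratio in the ends before weaning was 1.80, 1.72 and 1.47 in windows of 1, 2 and 5 Mb, 1.64 after merging within 1 kb, 1.51 without chromosome 17, 1.66 from pooled densities, and between 1.51 and 1.63 with 1 chromosome left out. After weaning it was 1.61 and 1.52 in windows of 1 and 2 Mb, 1.47 after merging, 1.30 among peaks wider than the median and between 1.31 and 1.47 with 1 chromosome left out. Against the 10 Mb next to the window, a reference added after seeing the data, it was 1.08 before weaning and turned to 0.986 after weaning. For covered length it was 1.01 before and 0.958 after weaning. Beyond the counting interval against that reference were also 0.766 for H3K9ac before, 0.942 for RNA pol II after and 0.824 for H3K9me3 before weaning. In a window of 1 Mb the ratio was 1.11 for H3K9ac before, 0.912 for RNA pol II after and 1.21 for H3K9me3 after weaning. In one of 5 Mb it was 0.633 for RNA pol II before and 0.823 for H3K9me3 after weaning. Among peaks wider than the median it was 0.313 and 0.695 for H3K9me3 before and after weaning.

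The ratio of peak numbers after to before weaning in the ends depended most on taking equal numbers of the widest peaks, which by construction sets the ratio over the 28 chromosomes at 1. It was then 1.25 for H3K9ac, on the other side of 1, 0.936 for H3K27ac, 1.52 for H3K9me3 and 0.812 for RNA pol II, against 0.991, 1.004, 0.990 and 1.004 in the rest. For H3K27ac it was 0.452 after merging and 0.262 among wider peaks, and for RNA pol II 0.444 in the last Mb against 0.363 in the rest. The H3K9me3 ratio in the ends was above that in the rest under each alternative tried. An interval was given for only 1 of these, the 10 Mb next to the window. There the interval of the ends included the reference ratio of 2.38. The cause of the other changes was not tested.

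With a reciprocal overlap of 50% the kept share was 13.6% and 37.6% for H3K27ac before and after weaning and 28.2% for H3K9ac after weaning, against 14.9%, 35.9% and 27.7% in the rest, so that the end was then above the rest for both lists after weaning, where it was below with 1 bp. The share that met H3K27ac was then 29.6% and 34.1% for H3K9ac before and after and 27.1% for RNA pol II before weaning, against 27.6%, 35.1% and 9.62% in the rest, and the share that met H3K9ac 3.69% and 2.05% for H3K27ac before and after and 32.2% for RNA pol II before weaning, against 5.49%, 2.49% and 27.2%. RNA pol II met 3.9% of H3K9ac and 0.410% of H3K27ac before weaning, against 3.9% and 0.275%, so that the H3K27ac share turned above the rest and that of H3K9ac after weaning with H3K27ac turned below it. Of RNA pol II after weaning 23.1% met H3K9ac, 23.1% H3K27ac and 69.2% H3K9me3, against 28.8%, 20.8% and 52.2%. Each of these also changed sides. H3K9me3 turned above the rest as well, with 2.38% meeting H3K9ac before and 2.88% meeting H3K27ac after weaning, against 2.08% and 2.78%. With equal numbers of the widest peaks the kept share was 22.1% and 17.6% for H3K9ac, 41.4% and 51.0% for H3K27ac, 37.5% for RNA pol II before and 21.9% for H3K9me3 after weaning. The rest then had 14.8% and 15.4%, 48.2% and 58.3%, 29.2% and 47.5%, so that for H3K9ac after weaning and both RNA pol II lists (46.2% against 29.6% after weaning) the end turned from below to above the rest. With peaks extended by 1 kb it was 12.3% for H3K9ac before and 43.3% and 86.4% for H3K27ac, against 12.2%, 49.6% and 87.2% in the rest. After merging it was 32.1% for H3K27ac before weaning against 35.5% in the rest, and H3K27ac met H3K9ac in 15.3% and 5.79% and RNA pol II in 2.01%, against 22.3%, 6.70% and 3.28%. Among wider peaks it was 19.3% and 77.3% for H3K27ac against 23.7% and 80.5%, and the end turned above the rest for H3K9ac (44.1% against 42.5%) and RNA pol II (66.7% against 49.0%) after weaning. There RNA pol II met 3.81% of H3K9ac and 26.7% of H3K9me3 before and 13.0% of H3K9me3 after weaning, against 5.54%, 19.1% and 19.8%. Of RNA pol II 36.0% met H3K9ac before weaning, against 41.7%, and 100% met H3K9me3 after weaning, 6 of 6 peaks against 90.3%. The last value was also 100% in windows of 1 and 2 Mb, 8 of 8 and 9 of 9 peaks against 86.9% in the rest for both. In the window of 1 Mb 14.3% of H3K9me3 after and 0.930% of H3K27ac before weaning met RNA pol II, against 14.7% and 2.1%. With the time points of the RNA pol II lists exchanged, an alternative added after seeing the data, the longer list met H3K9ac in 15.3% and H3K27ac in 57.6%, and the shorter list met H3K27ac in 7.69% and H3K9me3 in 38.5%, while 0.411% of H3K9ac and 0.0256% of H3K27ac met RNA pol II before and 2.48% of H3K27ac after weaning. The end denser than the rest was found for H3K9me3 before weaning on 6 chromosomes, and on 12 after merging or against the next 10 Mb.

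No paired analysis was possible because each group holds 1 library and no test was made. The assembled chromosome lengths were not used here. The number of peaks, 13 for RNA pol II after and 42 for H3K9me3 before weaning, limits what can be said of these lists, and depth was not weighed here.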
